A study of Homo sapiens with 2 samples.

Results

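RAB proteins are small GTPases that mark the membranes of the secretory and endocytic routes. The genes described here are the RAB GTPases and the RAB-like genes RABL2A, RABL2B, RABL3 and RABL6. They were chosen by gene symbol, as the probe sets of the array annotated with a single symbol of the RAB or RAB-like form, without effectors such as RAB11FIP1 and without pseudogenes. This gave 175 probe sets of 65 genes, all protein coding in RefSeq, out of 18239 genes with such a probe set on the array. The study compared GFP-SAS cells, a squamous carcinoma line of the human tongue that carries green fluorescent protein, after inhibition of miR-361-3p and without it, a search for genes whose RNA depends on this microRNA. Cells of the anti-miR group were given an antisense strand of LNA and DNA against miR-361-3p, at 25 nM and for 24 h, and control cells a non-target LNA/DNA oligonucleotide at the same dose and time. LNA, a locked form of RNA, strengthens pairing. Each group was measured on 1 Affymetrix 3' expression array from 10 ng of total RNA, so a difference between the arrays cannot be set against the spread between cultures, and no p-value is given. The RNA came from whole cultures, in which fewer expressing cells and less RNA per cell cannot be told apart.

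The microRNA that was inhibited is shown because its seed, bases 2 to 8, is the part that pairs with target transcripts. Its mature sequence, from RefSeq (GRCh38.p14, chrX:85903641-85903663, minus strand), is printed 5′ to 3′ with the seed in capitals.
hsa-miR-361-3p: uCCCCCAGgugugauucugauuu
Transcript sequences were not used here, so whether RAB transcripts hold a match to this seed was not analysed.

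A RAB protein is held on its membrane by lipid groups at its C-terminal end and works as a switch. Exchange factors load it with GTP, which lets it bind effectors such as tethers and motors. GTPase-activating proteins switch it off, and GDP dissociation inhibitors such as GDI2 take it back to the cytosol. RAB1, RAB2 and RAB6 proteins serve transport at the endoplasmic reticulum (ER) and the Golgi, RAB5 proteins the early endosome, RAB7A the late endosome and lysosome, RAB11 proteins recycling to the plasma membrane, and RAB27A the release of secretory vesicles.

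Values are log2 expression values. Probe sets that reached the median of all probe sets on at least 1 array were retained. This median was 4.64 for the anti-miR array and 4.63 for the control array. A gene's value is the mean over its retained probe sets. The SD over these probe sets is a technical spread within the arrays, 0.29 when pooled over all genes, and it holds no variation between cultures. The array's 23 nonspecific control probe sets reached 7.16 (anti-miR array) and 6.87 (control array). Where all probe sets of a gene lay below these levels, its signal may be background and its fold is only approximate. The labelled cell type was checked against its markers. For a marker, the highest of its probe sets on each array was taken, with no filter, in place of the mean. Of 6 epithelial markers with a single-symbol probe set, 4 (KRT5, SFN, CDH1 and EPCAM) lay above the nonspecific controls on both arrays. DSG3 did not, and KRT14 lay below the median (3.87 and 3.63). KRT6A, KRT17 and TP63, also planned, gave no value. The summed log2 level of the 6 markers was 50.2 (anti-miR array) and 50.5 (control array). None of 20 markers of fibroblasts, leukocytes, endothelium and skeletal muscle lay above the nonspecific controls on both arrays.

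Of the 65 RAB genes, 53 were measured, that is, had at least 1 of 122 retained probe sets. On the anti-miR array 14 of the 53 were at least 1.5-fold lower than on the control array, from 1.51-fold (RAB1A) to 3.05-fold (RAB29), and 1, RABL2B, was at least 1.5-fold higher. Of all 11272 genes with a value, 14.2% were that much lower and 8.23% that much higher. For the RAB genes the shares were 26.4% and 1.89%. At 2-fold, 6 RAB genes were lower and 0 higher, against 6.98% and 1.23% of all genes. The median RAB gene differed by -0.01, with quartiles of -0.59 and 0.25, while the median of all genes was 0.13, with quartiles of -0.21 and 0.33. The RAB genes thus reached further down than all genes at the lower quartile, and less far at the upper quartile.

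All 47 retained probe sets of the 14 lower genes were lower on the anti-miR array. In 11 of these genes the value rests on at least 2 probe sets, and in RAB43, RAB40B and RAB17 on 1. Since the same probe sets chose these genes, this is a description. Of the 47, 4 (2 of RAB31, 1 of RAB29 and 1 of RAB18) were retained through the control array alone and so had to be lower. None of the 14 genes rested wholly on such probe sets. In 7 of the 14 (RAB1A, RAB5A, RAB6A, RAB10, RAB14, RAB18 and RAB38) at least 1 probe set stayed above the nonspecific controls on the anti-miR array. In the other 7 (RAB17, RAB27A, RAB28, RAB29, RAB31, RAB40B and RAB43) none did. Over probe sets above the nonspecific controls on both arrays, 25 RAB genes had a value, of which 5 (RAB6A, RAB10, RAB14, RAB18 and RAB38) were at least 1.5-fold lower and 0 higher, against 10.9% and 10.4% of 4479 genes.

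**Figure D1:**
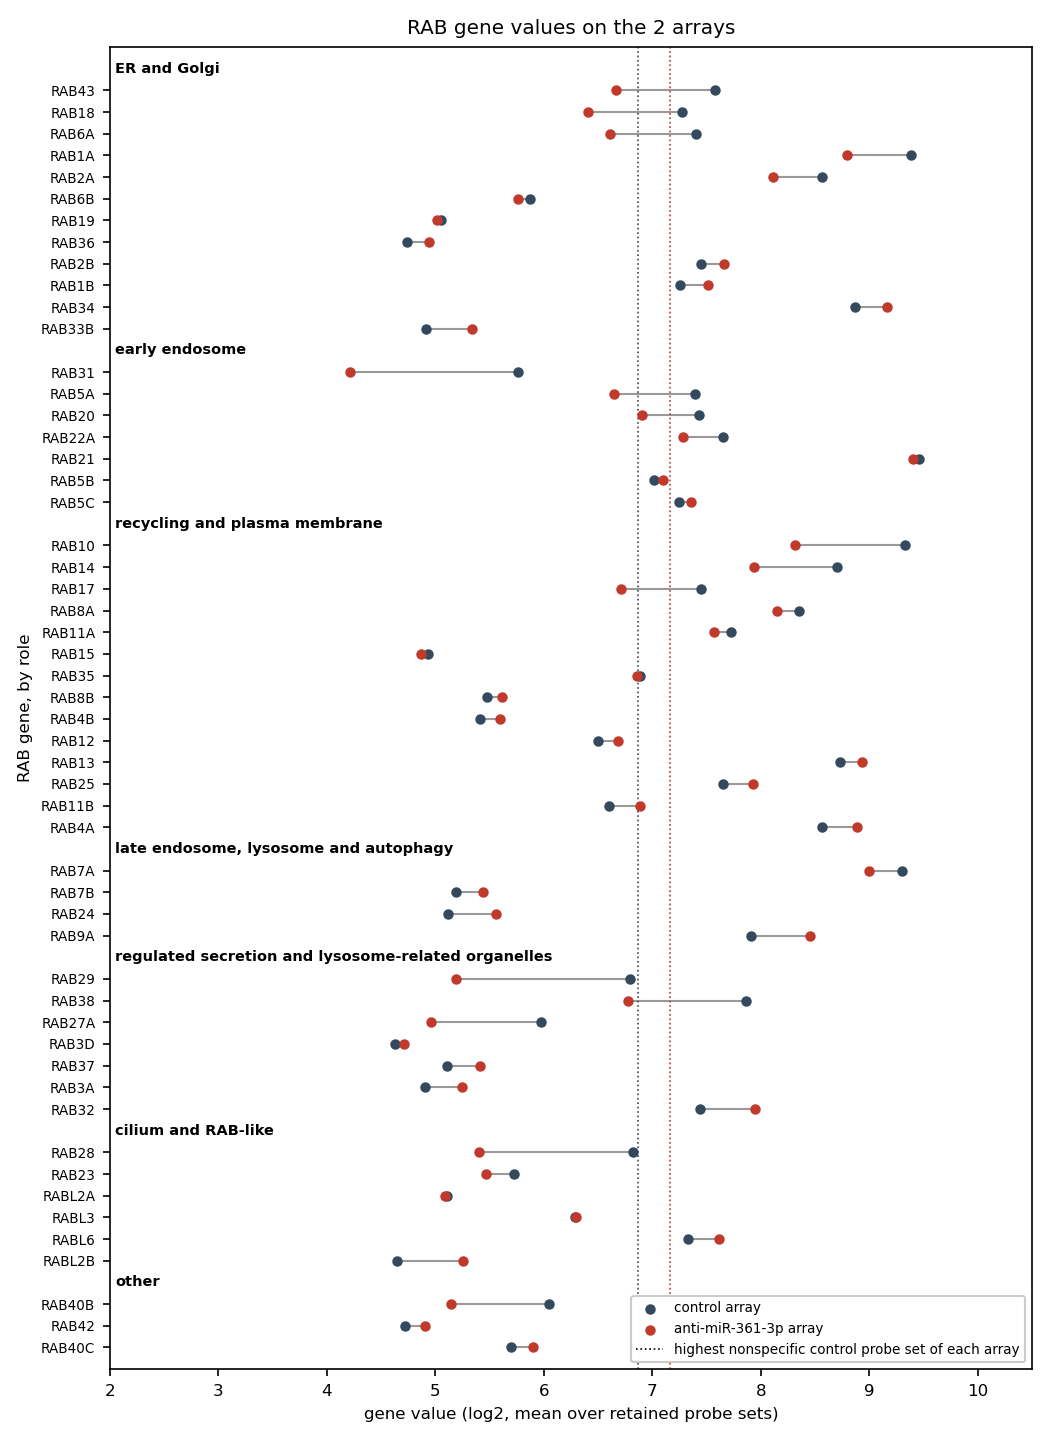
Gene values (log2, mean over retained probe sets) of the 53 measured RAB genes on the control array (dark) and the anti-miR array (red), 1 array each, grouped by role and ordered by difference. Dotted lines give the highest nonspecific control probe set of each array (6.87 and 7.16); RAB31, RAB28 and RAB29 end below them on the anti-miR array, while RAB1A, RAB10 and RAB14 stay above.

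Among the 12 measured genes of the ER and Golgi, 4 (33.3%) were at least 1.5-fold lower and 0 higher, with a median of -0.07. Of all genes, 14.2% were that much lower and 8.23% that much higher. The role groups are small, so 1 gene shifts such a share by much. RAB43, which acts at the Golgi, was at 6.66 (anti-miR array) and 7.57 (control array) (1.88-fold lower, 1 probe set). With its dim probe set kept, RAB43 differed by -0.41, short of 1.5-fold. RAB18, found on the ER and on lipid droplets, was at 6.41 and 7.27, a difference of -0.86 ± 0.36 (SD over 9 probe sets), with probe sets from -1.35 to -0.05. RAB6A, which directs retrograde transport at the Golgi, was at 6.61 and 7.40 (-0.79 ± 0.31, SD over 4 probe sets). All of its retained probe sets were lower, but with 4 dim probe sets kept the gene differed by -0.42. A pair of probe sets annotated to RAB6A together with RAB6C and RAB6D, which the rule leaves out, differed by -0.81 and -0.82. RAB1A, which tethers vesicles between the ER and the Golgi, was at 8.79 and 9.38 (-0.59 ± 0.14, SD over 4 probe sets). It was the lower gene nearest the 1.5-fold threshold of 0.58, and its highest probe set differed by -0.48, short of it. RAB2A, of the same route, was at 8.12 and 8.56 (-0.45 ± 0.10, SD over 4 probe sets). RAB34 (0.29) and RAB33B (0.43) were on the other side of 0. The lower values in this group were thus those of RAB1A, RAB2A, RAB6A, RAB18 and RAB43, with RAB6B at -0.10 and RAB19 at -0.04.

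Of the 7 early endosome genes, all measured, 2 (28.6%, beside 14.2% of all genes) were at least 1.5-fold lower and 0 higher. The median of the 7, -0.38, was the lowest of the role groups. RAB31, which moves cargo between the trans-Golgi network and endosomes, was at 4.22 and 5.76 (2.92-fold lower). Its 4 probe sets differed by -0.78 to -2.14 and lay below the nonspecific controls on both arrays, and 2 of them were retained through the control array alone. RAB5A, the main regulator of early endosome fusion, was at 6.65 and 7.39 (-0.74 ± 0.21, SD over 4 probe sets). Its brightest probe set, at 8.63 and 9.20, was the one above the nonspecific controls on both arrays and differed by -0.57, just short of the threshold. RAB20, linked to phagosomes, was the gene just outside the threshold, at 6.90 and 7.43 (-0.53, 1 probe set). RAB22A differed by -0.38 on average, which is the median of the group, but its 2 probe sets lay at -0.89 and 0.14. Only the probe set at 0.14 lay above the nonspecific controls on both arrays, so the rank of this median is uncertain. RAB21, an endosomal RAB that travels with integrins, was at 9.41 and 9.46 (-0.05 ± 0.03, SD over 2 probe sets).

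Among 14 genes of recycling and plasma membrane transport, all measured, 3 were at least 1.5-fold lower and 0 higher, with a median of 0.06. The 3 lower genes are 21.4%, beside 14.2% of all genes. RAB10, which brings vesicles to the basolateral membrane and moves glucose transporters, was at 8.32 and 9.33 (2.02-fold lower, -1.02 ± 0.06, SD over 2 probe sets). Both of its probe sets lay above the nonspecific controls on both arrays, at 7.88 against 8.86 and at 8.75 against 9.81. RAB14, which links the Golgi and endosomes, was at 7.94 and 8.71 (-0.77 ± 0.43, SD over 3 probe sets), and its probe sets were all above the nonspecific controls. RAB17, an epithelial RAB of transcytosis, was at 6.71 and 7.45 (1.67-fold lower, 1 probe set). RAB11A, the central recycling RAB, was at 7.57 and 7.72, a difference of -0.15 ± 0.22 (SD over 4 probe sets) that was smaller than the spread of its probe sets, which lay on both sides of 0. RAB25, the epithelial relative of RAB11A, was at 7.93 and 7.65, and RAB4A, of fast recycling, at 8.89 and 8.56 (1 probe set each). RAB10, RAB14 and RAB17 were thus the lower members of this group, while RAB8A (-0.20), RAB11A and RAB35 (-0.02) differed little.

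Of 7 genes of the late endosome, lysosome and autophagy, 4 were measured and 0 were past 1.5-fold in either direction. RAB7A was at 9.0 and 9.30 (-0.30 ± 0.09, SD over 3 probe sets), and all of its probe sets were lower. RAB9A, which returns receptors from late endosomes to the Golgi, was at 8.45 and 7.91 (0.55, 1 probe set), the gene just inside 1.5-fold on the higher side. RAB24, linked to autophagy, was at 5.56 and 5.12 (0.44 ± 0.06, SD over 2 probe sets). RAB7B was at 5.44 and 5.19 (0.25), with probe sets at -0.18 and 0.67. The median of the 4, 0.35, was the highest of the role groups. It lies between the values of RAB7B and RAB24, which were below the nonspecific controls on both arrays, so this rank is uncertain.

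Genes of regulated secretion and of lysosome-related organelles were the most divided. Of 7 measured, 3 (42.9%, beside 14.2% of all genes) were at least 1.5-fold lower, in fact at least 2-fold. The other 4 lay between 0.08 and 0.51. RAB29, which acts at the trans-Golgi network and lysosomes together with the kinase LRRK2, was at 5.19 and 6.80 (3.05-fold lower, -1.61 ± 0.26, SD over 5 probe sets). Its probe sets differed by -1.91 to -1.32. On the control array 2 of them were above the nonspecific controls, and on the anti-miR array none was. RAB38, a RAB of melanosomes and related organelles, was at 6.77 and 7.86 (2.13-fold lower, -1.09 ± 0.15, SD over 3 probe sets). Its brightest probe set was above the nonspecific controls on both arrays, at 8.04 against 9.09. RAB32, which shares that role, was at 7.94 and 7.44 (0.51, 1 probe set), so the relatives lay on opposite sides of 0. RAB27A was at 4.96 and 5.98 (2.02-fold lower, -1.01 ± 0.32, SD over 3 probe sets). All of its retained probe sets lay below the nonspecific controls, and with 2 dim probe sets kept it differed by -0.79. RAB3A, of synaptic and other secretory vesicles, was at 5.25 and 4.91 (0.34 ± 0.09, SD over 3 probe sets).

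In the ciliary and RAB-like group 1 of 6 measured genes was at least 1.5-fold lower and 1 higher. Each is 16.7%, beside 14.2% and 8.23% of all genes. RAB28, a RAB of cilia, was at 5.41 and 6.83 (2.68-fold lower, -1.42 ± 0.21, SD over 3 probe sets). Its probe sets ran from 5.32 to 5.52 on the anti-miR array and from 6.65 to 6.99 on the control array, without overlap. RABL2B, of ciliary transport, was at 5.26 and 4.64 (1.53-fold higher, 1 probe set), below the nonspecific controls on both arrays. RABL2A, its close copy, was at 5.09 and 5.11. These probe sets carry the suffix _x_at, which marks probes that can match other transcripts, and those annotated to both genes were too dim to be retained, so the values of RABL2A and RABL2B are uncertain. RABL3 averaged 0.01, with probe sets from -0.43 to 0.55. Only the probe set at 0.55 lay above the nonspecific controls on both arrays, so this average is uncertain. Of the 3 other measured genes, RAB40B, which recruits a cullin ubiquitin ligase, was at 5.14 and 6.05 (1.87-fold lower, 1 probe set), below the nonspecific controls on both arrays.

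**Figure D2:**
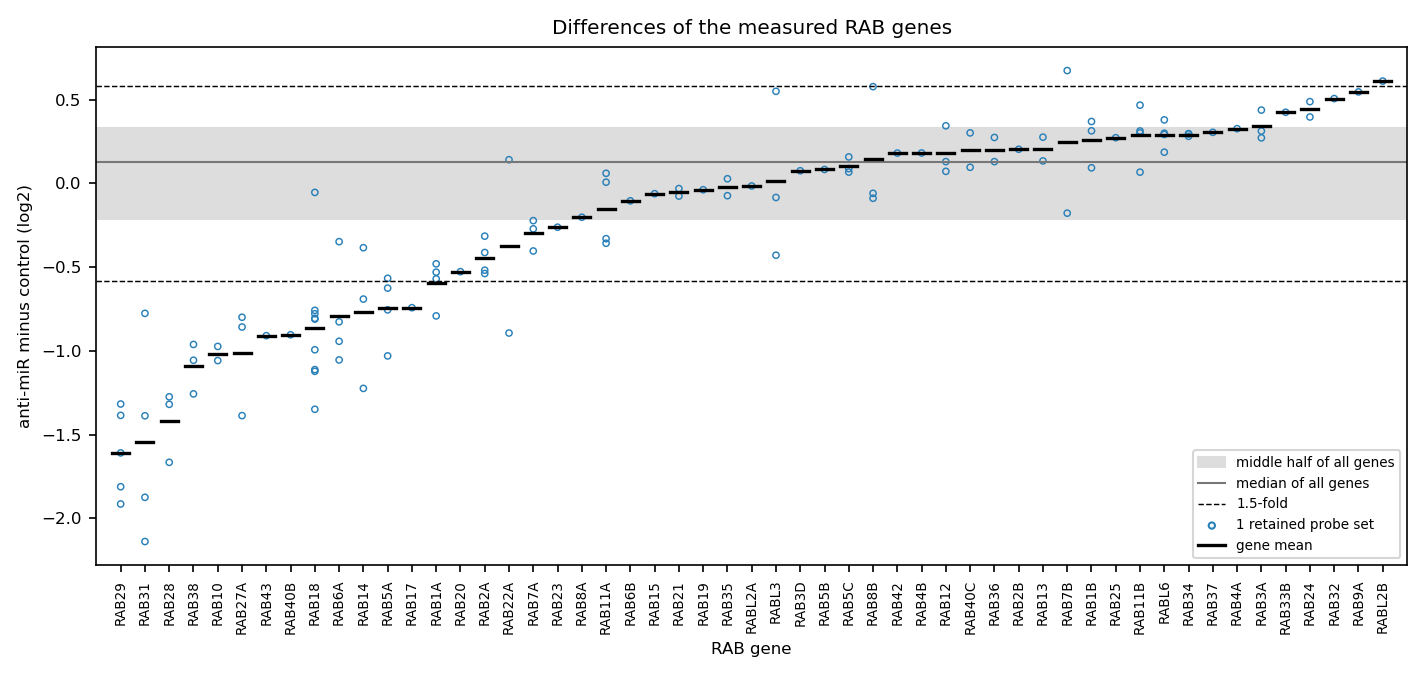
Difference between the arrays (anti-miR minus control, log2) for the 53 measured RAB genes in order, with a bar for the gene mean and a circle for each retained probe set. The grey band runs between the quartiles of all genes (-0.21 to 0.33) and the dashed lines mark 1.5-fold; 14 gene means lie at or below the lower line and 1, RABL2B, above the upper line.

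The other 38 measured genes lay within 1.5-fold, from -0.53 (RAB20) to 0.55 (RAB9A), 13 below 0 and 25 above. Among them, RAB3D, RAB4B, RAB12, RAB13, RAB15, RAB23, RAB36, RAB42 and RABL6 ran from -0.26 (RAB23, a regulator of hedgehog signalling) to 0.29 (RABL6). Of these 25, 20 were no higher than the upper quartile of all genes, 0.33. The 12 probe sets of the poly-A controls, spiked in ahead of labelling, differed by 0.32 ± 0.19 (SD). The part of the labelling reaction in these small positive differences was not tested. The 12 genes without a retained probe set were RAB3B, RAB3C, RAB6D, RAB9B, RAB26, RAB27B, RAB30, RAB33A, RAB39A, RAB39B, RAB40A and RAB41. Their 21 probe sets gave gene values between 2.59 and 4.31, and differences from -0.30 (RAB3B) to 0.32 (RAB33A). With no filter, 12 of all 65 RAB genes were at least 1.5-fold lower and 1 higher, against 7.37% and 4.4% of 18239 genes.

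Some close relatives within a RAB subfamily lay apart. In 11 subfamilies at least 2 members were measured, and in 6 of these the lowest and the highest member differed from each other by at least 1.5-fold. The 6 include the RABL2 pair, whose values are uncertain. The share among other pairs of genes was not computed. The differences of all genes had an SD of 0.58, so the count of 6 is only a description. In the RAB1 pair, whose proteins serve the same step, RAB1A differed by -0.59 ± 0.14 (SD over 4 probe sets) and RAB1B by 0.26 ± 0.15 (SD over 3 probe sets). RAB1B was at 7.52 and 7.26. Of the RAB5 isoforms, RAB5A was lower (-0.74), RAB5B was at 7.10 and 7.02 (1 probe set) and RAB5C at 7.35 and 7.25 (0.11 ± 0.05, SD over 3 probe sets). In the RAB40 pair, RAB40B differed by -0.90 (1 probe set) and RAB40C by 0.20 ± 0.15 (SD over 2 probe sets). All probe sets of this pair lay below the nonspecific controls on both arrays, so its gap is uncertain. RAB2A (-0.45) stood against RAB2B (0.20), and RAB6A (-0.79) against RAB6B (-0.10, 1 probe set), which lies below the nonspecific controls. RAB11A (-0.15) and RAB11B (0.29), RAB7A (-0.30) and RAB7B (0.25), and RAB8A (-0.20) and RAB8B (0.14) differed by less than 1.5-fold. RAB7B and RAB8B had probe sets on both sides of 0. The probe sets of the lowest and of the highest member did not overlap in any of the 11 subfamilies. However, the members were ordered by these same values, and in several subfamilies a member had only 1 probe set. How often other pairs of genes lack overlap was not computed, so this too is only a description.

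**Figure D3:**
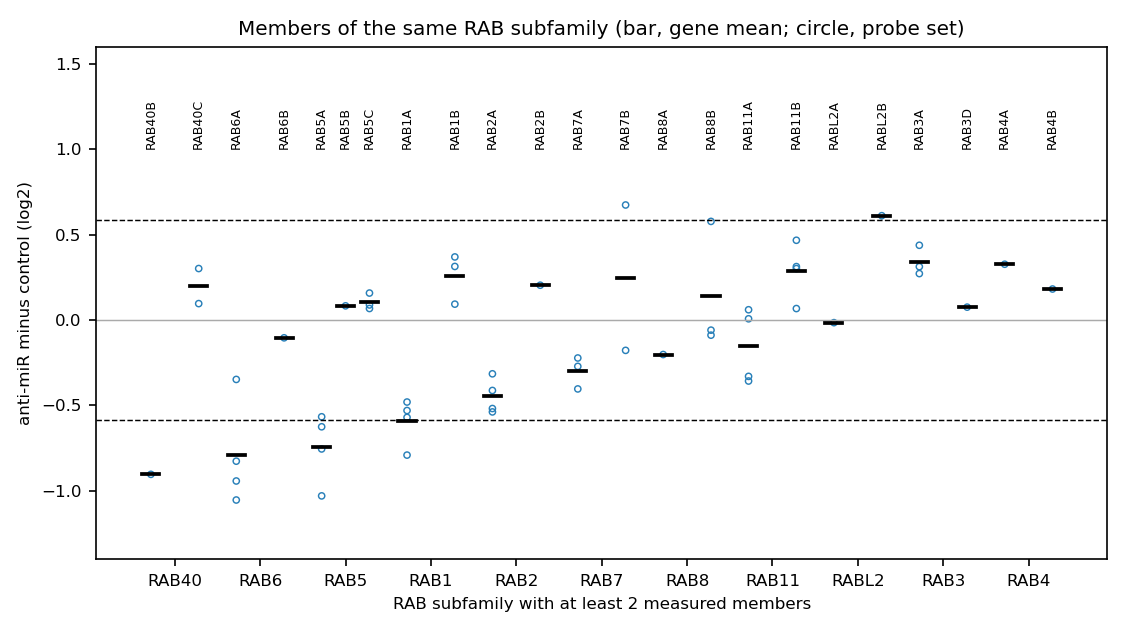
Difference between the arrays (anti-miR minus control, log2) for members of the 11 RAB subfamilies with at least 2 measured genes, with a bar for each gene mean and a circle for each retained probe set. RAB1A, RAB5A, RAB6A and RAB40B lie at or below the lower dashed line (1.5-fold) while RAB1B, RAB5B, RAB5C, RAB6B and RAB40C lie within it.

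The members differed by gene length, a property that the choice of genes did not use. The genomic span of a gene was taken from RefSeq. Across the 53 measured RAB genes, log10 span and the difference correlated with Pearson's r = -0.52 and Spearman's rho = -0.56, and across 11266 genes with r = -0.47 and rho = -0.49. These are correlations across genes of the same pair of arrays, which are not independent replicates. Of the 14 lower RAB genes, 11 had a span at or above the median of all genes, 27.6 kb. Among the 27 RAB genes of such spans, 11 (40.7%) were at least 1.5-fold lower and 0 higher, against 25.4% and 3.83% of all genes of such spans. Among the 26 shorter RAB genes, 3 (RAB14, RAB17 and RAB29), or 11.5%, were lower and 1 was higher, against 2.98% and 12.6% of all shorter genes. RAB29, with a span of 7.5 kb, was the lowest RAB gene, and the next lowest, RAB31 and RAB28, spanned 154 kb and 117 kb. In 8 of the 11 subfamilies the lowest member was also the one with the longest span, a share that was not set against other pairs of genes. RAB1A spans 43.3 kb and RAB1B 8.85 kb, RAB2A 107 kb and RAB2B 17.9 kb, but RAB40B (43.7 kb) and RAB40C (39.9 kb) are alike. RAB6A (85.4 kb) and RAB6B (71.6 kb) also lie close in span. RAB37 (76.2 kb) and RAB8B (78.2 kb) are long, and their means were above 0. The mean level of a RAB gene was only weakly related to its difference (r = -0.07, rho = -0.09). The part of gene length in the RAB differences was not tested.

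**Figure D4:**
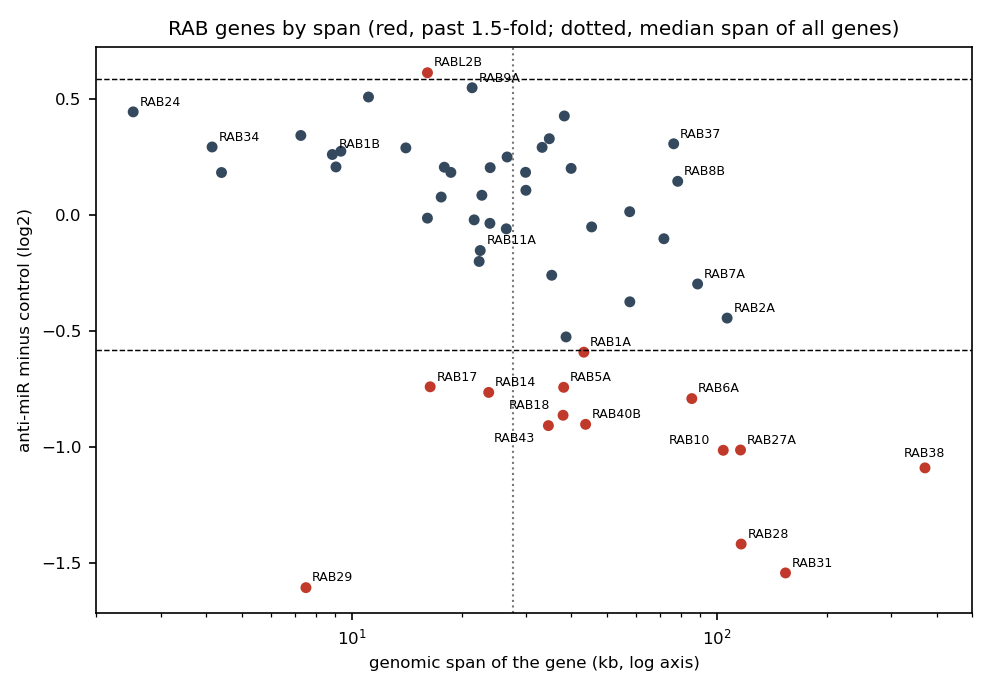
Difference between the arrays (anti-miR minus control, log2) of the 53 measured RAB genes against genomic span (kb, log axis), 1 point per gene, red where past 1.5-fold (dashed lines). The dotted line is the median span of all genes, 27.6 kb; 11 of the 14 lower genes lie to its right and RAB29, RAB17 and RAB14 to its left.

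The promoter table of RefSeq (GRCh38.p14; 250 bases before and 50 after each start) held 75 windows for 53 of the 65 RAB genes. They were searched for CACGTG, the E-box bound by factors such as TFEB, which drives lysosomal genes, and MYC. This motif reads the same on both strands and was chosen with the RAB values known. It was in 6 RAB windows (8%), of 6 genes, and in 7.26% of all 35116 windows. The stretches around it are printed 5′ to 3′ on the gene's strand, with the motif in capitals, because they include the 2 RAB genes with the lowest values. They lie at chr1:205775446-205775475 (RAB29, minus strand, after the start), chr18:9708221-9708266 (RAB31, plus), chr3:19946956-19947001 (RAB5A, plus), chr12:71754823-71754862 (RAB21, plus), chr1:229270989-229271034 (RAB4A, plus) and chr5:177303724-177303769 (RAB24, minus).
RAB29: caggcaaccctgCACGTGacgcttgcggag
RAB31: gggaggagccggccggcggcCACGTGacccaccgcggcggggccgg
RAB5A: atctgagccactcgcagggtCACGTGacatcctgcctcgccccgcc
RAB21: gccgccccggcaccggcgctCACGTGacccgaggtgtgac
RAB4A: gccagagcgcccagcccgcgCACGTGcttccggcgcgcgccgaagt
RAB24: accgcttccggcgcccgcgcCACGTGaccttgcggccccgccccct
The genes that hold the motif ran from the lowest RAB values to some of the higher ones, with RAB29 at -1.61, RAB31 at -1.54, RAB5A at -0.74, RAB21 at -0.05, RAB4A at 0.33 and RAB24 at 0.44. A match of these letters does not show binding.

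The genes that load, switch off, prenylate or read RAB proteins were described from lists of known regulators. The 4 listed genes of prenylation and membrane extraction were all measured, and 0 were past 1.5-fold. RABGGTA and RABGGTB, the subunits of the transferase that attaches lipids to RAB proteins, differed by 0.44 ± 0.09 (SD over 4 probe sets) and 0.29 ± 0.04 (SD over 2 probe sets). GDI2 was at 9.67 and 9.71 (-0.04 ± 0.03, SD over 5 probe sets).

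Of 49 listed exchange factors 43 were measured, 8 at least 1.5-fold lower and 2 higher, with a median of 0.10. These are 18.6% and 4.65%, beside 14.2% and 8.23% of all genes, and 2 of the 8, RIC1 and SBF2, passed the filter through the control array alone. GAPVD1, an exchange factor of RAB5 proteins, was at 6.06 and 7.80 (-1.74 ± 0.47, SD over 7 probe sets). RIC1, a subunit of the exchange complex of RAB6A, was at 4.01 and 5.64 (-1.62 ± 0.48, SD over 3 probe sets) and differed by -1.11 with no filter. SBF2, at 4.05 and 5.54, averaged -1.49, but its 3 probe sets ranged from -2.19 to -0.11. The anti-miR values of RIC1 and SBF2 lay below the median of 4.64, so their folds are only approximate. The higher genes, named after their values were seen, were TRAPPC2 (0.84, 1 probe set, and 0.55 with no filter) and TRAPPC2L (0.91 ± 0.49, SD over 2 probe sets), subunits of the TRAPP complexes that act on RAB1 and RAB11 proteins.

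Of 38 listed GTPase-activating proteins 30 were measured, 9 at least 1.5-fold lower and 0 higher, with a median of -0.09. Of the 9, 6 (TBC1D4, TBC1D9, TBC1D12, TBC1D19, USP6NL and TBCK) passed the filter through the control array alone, being dimmer than the median on the other. A gene retained in that way had to be lower, so the count of 9, which is 30% beside 14.2% of all genes, is no support for a shift of the list. With no filter 9 of 37 were at least 1.5-fold lower, beside 7.37% of all genes. RABGAP1, a protein of the TBC family, was at 6.46 and 8.0 (2.89-fold lower, -1.53 ± 0.05, SD over 3 probe sets). EVI5 was at 5.10 and 6.89 (1 probe set, and -0.80 with no filter), below the nonspecific controls on the anti-miR array. TBC1D12 was at 4.24 and 5.47 (1 probe set), below them on both arrays. Both folds are only approximate.

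Of 58 listed effectors 46 were measured, 8 at least 1.5-fold lower and 1 higher, with a median of 0.09. These are 17.4% and 2.17%, again beside 14.2% and 8.23%. Of the 8, 2 (MYO5A and SYTL2) passed the filter through the control array alone and so had to be lower. MYO5A, the myosin that carries RAB27A-bound organelles, was at 3.42 and 5.40 (-1.98 ± 0.03, SD over 2 probe sets), and SYTL2, a synaptotagmin-like effector of RAB27A, at 4.28 and 5.53 (-1.25 ± 0.51, SD over 2 probe sets). The other 4 measured RAB27A effectors, MLPH, SYTL1, SYTL3 and UNC13D, named after their values were seen, lay between 0.16 and 0.31. On the anti-miR array MYO5A and SYTL2 had gene values below the median of 4.64, so their folds are only approximate. RABEP1, an effector of RAB5 proteins, was at 5.25 and 6.43 (-1.18 ± 0.43, SD over 3 probe sets). These gene values lie below the levels of the nonspecific controls on both arrays, so its fold may be only approximate. The higher effector, named after its value was seen, was the Golgi matrix protein GOLGA2 (0.66 ± 0.05, SD over 3 probe sets).

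In the related ARF and ARL family of small GTPases, which act in vesicle budding and other membrane steps, 25 genes were listed. Of these, 15 had a single-symbol probe set and 12 were measured. Of the 12, 0 were at least 1.5-fold lower and 1, ARL2 (0.61, 1 probe set), was higher. These are 0% and 8.33%, beside 14.2% and 8.23% of all genes, and in so small a list 1 gene shifts the share by much. SAR1A (-0.56 ± 0.06, SD over 3 probe sets) lay just short of the threshold. ARL2 and SAR1A were named after their values were seen. The median of the 12 was 0.05, against -0.01 for RAB genes and 0.13 for all genes. With 1 array per group, the difference between the families has no test.

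**Figure D5:**
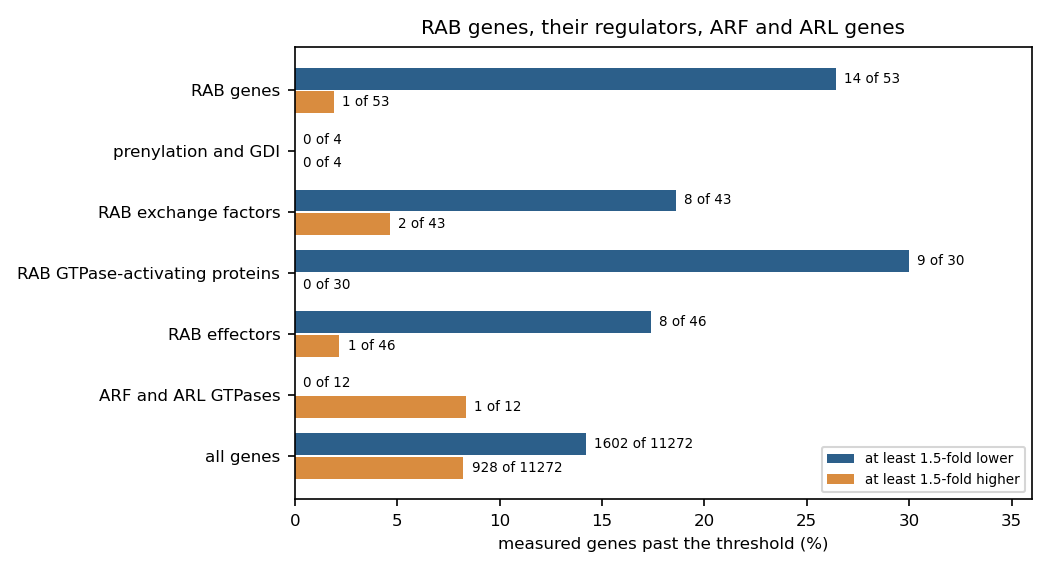
Share of measured genes (%) at least 1.5-fold lower (blue) or higher (orange) on the anti-miR array for RAB genes, their regulators, ARF and ARL genes and all genes, with the counts beside the bars. The blue bar stands for 14 of 53 RAB genes, beside 14.2% of all genes, and ARF and ARL genes have none. Of the 9 lower GTPase-activating proteins, 6 passed the filter through the control array alone. So did 2 of the 8 lower exchange factors and 2 of the 8 lower effectors.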

How the data were processed

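Each group was measured on 1 Affymetrix array. The authors deposited 1 log2 value per probe set and array, computed with RMA, per the submitters' processing notes. This method subtracts background, brings arrays to a like distribution and summarises probes. For the software, its version and the set of arrays in that step, the sources used here give nothing. Of 49386 probe sets, 93 were array controls, 45253 others had 1 gene symbol, 1327 had several and 2800 had none in the platform annotation used here. By Entrez ID, 45172 of the 45253 were found in the RefSeq genes of GRCh38.p14, and no symbol changed. Retention at the array median gave 24127 probe sets and 11272 genes. There was no detection call, and the small number of arrays limits precision.

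The members and lists were chosen with earlier results of these data known. Genes named were all RAB genes past 1.5-fold, RAB1A, RAB5A, RAB7A and RAB11A, the genes nearest the threshold, and up to 3 genes per regulator list with the largest difference and agreeing probe sets. Alternatives were no filter, filters at the 75th percentile and on the mean of both arrays, the highest probe set or the median of probe sets, centring on the median or a lowess trend (fraction 0.3), plain _at probe sets, updated symbols and a 2-fold threshold. Besides ARF and ARL genes, a further planned GTPase family is not reported here. A restriction to probe sets above the nonspecific controls was chosen after seeing the data. The computation was tested on simulated data. Scripts ran in Python 3.11.15 with pandas 2.3.3, numpy 2.4.6, statsmodels 0.14.6, scipy 1.17.1 and matplotlib 3.10.9.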

Additional observations from a re-analysis of the deposited data

Results flagged for a closer look

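Outside the RAB gene values, these signals were above those of the control array. A probe set annotated to both LRP10 and RAB13, which the choice of genes leaves out, was higher by 0.21 on the anti-miR array, close to RAB13 itself (0.21 ± 0.10, SD over 2 probe sets). For the spiked poly-A transcripts, the mean over probe sets was higher by 0.32.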

How the results depend on the processing

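With 1 array in each group, none could be left out. No paired analysis was possible because there was 1 sample in each group. Against 14 RAB genes at least 1.5-fold lower and 1 higher, plain _at probe sets gave 5 lower and 0 higher among 21 genes, probe sets above the nonspecific controls 5 lower and 0 higher among 25, and a 2-fold threshold 6 lower and 0 higher. Fewer genes had a value under the first pair of these settings. The filter at the 75th percentile and centring on the median or the lowess trend also gave 0 higher, beside 12.2%, 4.43% and 4.85% of all genes. The probe set with the highest level gave 2 higher (RAB7B and RABL2B), beside 9.56% of all genes. Under the other alternatives the counts stayed within 1.5 times. RAB1A fell short of the threshold with the highest probe set (-0.48), the median of probe sets (-0.55) and probe sets above the nonspecific controls (-0.53), RAB5A with the first and the last of these (-0.57 in each), and RAB6A (-0.42) and RAB43 (-0.41) with no filter. Subtracting the median gene (0.13) brought RAB20 past it (-0.66), as did the lowess trend (-0.63). None of the lower genes changed sign under any alternative that could be computed. The median over RAB genes ran from -0.15 to 0.12, beside medians of all genes from 0 to 0.14. Signal over background limits the folds of the 7 lower genes that had no probe set above the nonspecific controls on the anti-miR array.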
